A study of Mus musculus with 20 samples.

Results

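T cells carry surface receptors that raise or restrain their response to an antigen, and 10 genes of this system are described here across 20 microarrays of mouse melanomas. They were the inhibitory receptors Pdcd1 (PD-1), Ctla4, Lag3, Havcr2 (TIM-3), Tigit, Cd244a (2B4) and Cd160, the costimulatory receptor Icos, the ectonucleotidase Entpd1 (CD39) and the transcription factor Tox. The genes were found on the table by their symbols, as a set known from T cell exhaustion. That rule uses no measured value, but the set was chosen with earlier results of these data known. Each had 1 row of the deposited table, so that 10 of 19504 named genes are the subject. An inhibitory receptor binds a ligand on a tumor or antigen-presenting cell and dampens signaling through the T cell receptor. Under lasting stimulation T cells come to carry several of these receptors together, under the direction of Tox, and this state is called exhaustion. Several of the genes are not restricted to T cells: Entpd1 is also found on macrophages and endothelial cells, Havcr2 on dendritic cells and macrophages, and Cd244a on natural killer (NK) cells and myeloid cells.

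The arrays came from 2 genotypes and 3 compartments. Mice called B carried Tyr::CreERT2 and BrafCA/CA, and mice called B;p38α carried p38αlox/lox in addition, which deletes the stress kinase p38α, encoded by Mapk14, where Cre is active. In both genotypes newborn skin was treated with 4-hydroxytamoxifen at 5 mg/ml in acetone, first on postnatal day 2.5 and again on day 3.5, when the pups were also irradiated once with UVB at 6.24 kJ/m². The controls therefore share BrafV600E, tamoxifen and UVB with the p38α-deleted mice, and because the tyrosinase promoter drives Cre in melanocytes, immune cells of B;p38α tumors are not the cells targeted for recombination. Tumors were collected at endpoint size as complete tumors (5 B and 3 B;p38α samples), or dissociated and separated with magnetic beads into cells positive for CD45, the common leukocyte protein (3 and 3), and the remaining CD45- cells (3 and 3). Replicates are labeled as biological, but their animals of origin are not stated, so a p-value here covers sample-to-sample spread that may include technical spread. All levels below are deposited log2 values, in which 1 unit is a doubling. They are compared between samples for 1 gene and not between genes, since probes differ in brightness.

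Some properties of the arrays bear on all values. The narrowest spread of values was seen in B CD45- replicate 1 (interquartile range 2.95) and next in B CD45+ replicate 2 (3.41). The closest pair of arrays was replicates 1 and 2 of B;p38α CD45+ cells (r = 0.991 across genes). The mean of 3 Y-linked genes ranged from 2.75 to 9.29 over the arrays while no label states an animal's sex. Mapk14 was at 10.06 ± 0.11 (SD, n = 5) in B and 9.79 ± 0.20 (n = 3) in B;p38α complete tumors, and the place of its probes relative to the deleted part is not given, so it does not check the labels. All 8 general leukocyte genes measured were higher in CD45+ than in CD45- cells, by a median of 2.68. The mean of 7 fibroblast genes stayed between 10.98 and 11.60 in CD45+ cells, against 11.39 to 12.57 in CD45- cells, so the selected cells kept fibroblast transcripts. All 7 endothelial genes measured were higher in CD45+ than in CD45- cells, by a median of 1.18. T cell genes were present in every compartment, with list means from 6.08 to 6.92 in CD45+ cells, 5.03 to 5.86 in CD45- cells and 4.99 to 5.50 in complete tumors. The 3 genes of the CD8 and CD4 coreceptors were all higher in CD45+ cells.

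Of the 10 genes, 5 were higher in CD45+ than in CD45- cells at a limma adjusted p under 0.05, against 7.79% of all genes, and these were Havcr2, Cd244a, Entpd1, Ctla4 and Tigit. To show the sequence before their starts, 250 bases upstream of a transcription start are printed for each of these 5 genes, from RefSeq on the assembly GRCm38.p6, 5′ to 3′ on the gene's strand. Of the 10 genes, 7 had an entry in the promoter table. Capitals mark matches on either strand to 4 motifs of factors that act in T cells and other leukocytes: the ETS core GAGGAA, the AP-1 site TGANTCA, the NFAT core TGGAAA and the RUNX site TGTGGT. No match overlapped another.
Havcr2, chr11:46454681-46454930, plus strand: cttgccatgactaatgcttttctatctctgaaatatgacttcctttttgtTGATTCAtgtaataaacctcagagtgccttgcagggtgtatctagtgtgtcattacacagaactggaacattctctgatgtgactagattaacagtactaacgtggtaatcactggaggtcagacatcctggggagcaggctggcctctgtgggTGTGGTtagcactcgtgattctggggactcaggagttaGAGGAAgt
Cd244a, chr1:171558943-171559192, plus strand: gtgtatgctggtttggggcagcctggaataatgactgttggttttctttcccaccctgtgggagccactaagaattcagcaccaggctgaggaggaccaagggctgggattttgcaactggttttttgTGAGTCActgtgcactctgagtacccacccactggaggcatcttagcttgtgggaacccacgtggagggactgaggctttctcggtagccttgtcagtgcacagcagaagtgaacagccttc
Entpd1, chr19:40659520-40659769, plus strand: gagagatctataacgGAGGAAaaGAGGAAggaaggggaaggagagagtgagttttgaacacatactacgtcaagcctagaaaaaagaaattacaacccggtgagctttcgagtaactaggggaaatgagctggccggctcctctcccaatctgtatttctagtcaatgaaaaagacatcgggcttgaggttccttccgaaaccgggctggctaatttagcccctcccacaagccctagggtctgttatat
Ctla4, chr1:60908775-60909024, plus strand: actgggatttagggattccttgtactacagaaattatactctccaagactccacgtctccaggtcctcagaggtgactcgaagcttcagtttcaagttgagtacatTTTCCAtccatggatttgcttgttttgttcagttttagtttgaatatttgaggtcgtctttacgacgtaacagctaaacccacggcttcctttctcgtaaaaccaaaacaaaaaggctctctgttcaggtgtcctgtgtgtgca
Tigit, chr16:43664185-43664434, minus strand: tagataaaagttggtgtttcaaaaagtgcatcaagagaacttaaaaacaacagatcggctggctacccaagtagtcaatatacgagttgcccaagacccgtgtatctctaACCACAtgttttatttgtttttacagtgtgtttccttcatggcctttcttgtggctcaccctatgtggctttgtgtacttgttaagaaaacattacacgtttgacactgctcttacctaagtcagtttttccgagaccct
The Havcr2 window held 1 ETS core, 1 AP-1 and 1 RUNX match, that of Cd244a 1 AP-1 match, that of Ctla4 1 NFAT core and that of Tigit 1 RUNX match. The printed window of Entpd1 held 2 ETS cores, and the window of its other start in the table held none of the 4 motifs. Among 32851 promoter windows of the same length, 23.3% held the ETS core, 6.75% the AP-1 site, 18.6% the NFAT core and 14% the RUNX site. These matches are letters in a window and say nothing on binding.

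Havcr2 had the largest difference between the sorted populations among the 10 genes. Its level was 8.14, 7.59 and 7.70 in B CD45+ cells and 7.86, 7.63 and 8.31 in B;p38α CD45+ cells. In CD45- cells it was 5.04, 5.93 and 5.59 in B and 4.04, 5.31 and 4.77 in B;p38α. Every CD45+ array lay above every CD45- array and above the highest complete tumor, which was at 6.08. CD45+ cells were higher than CD45- cells by 2.76 (SE 0.24, limma adjusted p = 3.76e-05), taken as the mean of both genotypes, and higher than complete tumors by 2.54 (SE 0.23, limma adjusted p = 4.94e-06). TIM-3, its product, binds galectin-9, CEACAM1 and other ligands.

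Cd244a, the receptor of CD48, showed the same separation. The level was 7.59, 8.02 and 7.54 in B CD45+ cells and 7.31, 7.50 and 7.52 in B;p38α CD45+ cells. In CD45- cells it was 6.69, 5.85 and 5.97 in B and 3.81, 5.18 and 4.52 in B;p38α. All CD45+ arrays stood above all CD45- arrays and above all complete tumors, of which the highest was at 6.98. The difference was 2.24 against CD45- cells (SE 0.23, limma adjusted p = 9.62e-05) and 1.48 against complete tumors (SE 0.27, limma adjusted p = 0.00115).

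Entpd1 encodes the enzyme that removes phosphates from extracellular ATP and ADP, the first step toward adenosine. Its level was 11.27, 11.29 and 11.45 in B CD45+ cells, and 10.31, 9.98 and 11.36 in B;p38α CD45+ cells. In CD45- cells it was 9.53, 9.48 and 9.93 in B and 7.41, 8.64 and 8.81 in B;p38α. The lowest CD45+ array, at 9.98, was just above the highest CD45- array, at 9.93, and below the highest complete tumor, at 10.19. The difference was 1.98 against CD45- cells (SE 0.28, limma adjusted p = 7.54e-04) and 1.28 against complete tumors (SE 0.19, limma adjusted p = 2.97e-04).

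Ctla4, which competes with Cd28 for CD80 and CD86, varied far more among CD45+ arrays. The level was 4.50, 7.16 and 7.01 in B CD45+ cells and 5.10, 5.62 and 5.90 in B;p38α CD45+ cells. In CD45- cells it was 5.70, 3.97 and 4.75 in B and 2.77, 3.79 and 2.68 in B;p38α. B CD45+ replicate 1 was the low array of its group and B CD45- replicate 1 the high array of its own, so that the sorted populations overlapped. The difference was 1.94 against CD45- cells (SE 0.47, limma adjusted p = 0.0193) and 2.28 against complete tumors (SE 0.40, limma adjusted p = 8.99e-04). The call against CD45- cells was lost without B CD45+ replicate 3, at 1.74, and without B;p38α CD45+ replicate 3, at 1.85.

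Tigit, a receptor of CD155 (Pvr) and CD112 (Nectin2), had a small difference. The CD45+ arrays ranged from 4.58 to 5.36 with a median of 5.27, and the CD45- arrays from 3.87 to 4.90 with a median of 4.36. B CD45+ replicate 2 lay inside the range of CD45- cells, and the other CD45+ arrays except B;p38α replicate 1, at 4.88, lay above it. The difference was 0.74 against CD45- cells (SE 0.19, limma adjusted p = 0.0264) and 0.99 against complete tumors (SE 0.18, limma adjusted p = 0.00106). The call against CD45- cells was lost without any 1 of 6 arrays: B CD45+ replicates 1 and 3 (0.69 and 0.67), B;p38α CD45+ replicates 2 and 3 (0.71 and 0.70), and, of the CD45- arrays, B replicate 2 (0.64) and B;p38α replicate 3 (0.66).

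Pdcd1 and Icos were called against complete tumors and missed the threshold against CD45- cells. Pdcd1, the receptor of PD-L1 (Cd274) and PD-L2 (Pdcd1lg2), ranged from 5.43 to 5.95 in CD45+ cells, from 4.40 to 5.80 in CD45- cells and from 4.49 to 5.36 in complete tumors. B CD45- replicate 1 held the 5.80, and the other CD45- arrays were at or below 5.10. The difference was 0.68 against CD45- cells (SE 0.20, limma adjusted p = 0.0501) and 0.81 against complete tumors (SE 0.14, limma adjusted p = 7.34e-04). Pdcd1 was called against CD45- cells without B CD45- replicate 1 (0.85), in 1 fit of all 6 groups (0.68) and after repeated quantile normalization (0.67). It was also called with array weights (0.85), with the Y-linked mean as a covariate (0.75) and without the 2 narrowest arrays (0.89). Icos, the receptor of ICOSL, ranged from 6.80 to 9.37 in CD45+ cells, from 4.97 to 8.29 in CD45- cells and from 5.65 to 6.19 in complete tumors. Its highest CD45- value was also that of B CD45- replicate 1. The difference was 1.46 against CD45- cells (SE 0.49, limma adjusted p = 0.0806) and 1.69 against complete tumors (SE 0.28, limma adjusted p = 5.90e-04). Icos was called against CD45- cells without B CD45+ replicate 1 (1.81) and without B CD45- replicate 1 (1.78). It was also called in 1 fit of all 6 groups (1.46), with array weights (1.81) and without the 2 narrowest arrays (1.55).

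Lag3, a receptor of MHC class II molecules, reached similar levels in CD45- and CD45+ arrays. Its level in CD45+ cells was 6.84, 6.96 and 7.31 in B and 6.78, 6.65 and 7.09 in B;p38α. In CD45- cells it was 7.61, 6.18 and 7.46 in B and 5.89, 7.14 and 7.39 in B;p38α. The CD45- arrays split into 4 above 7 and 2 near 6, with both kinds in each genotype, and they spanned the whole range of the CD45+ arrays. The difference was -0.01, with a 95% interval from -0.67 to 0.65 (limma adjusted p = 0.994), while against complete tumors Lag3 was higher by 0.91 (SE 0.25, limma adjusted p = 0.0143). Dissociation-related genes were also higher in sorted cells than in complete tumors (list means of 9.67 to 10.77 in CD45- cells, 10.47 to 11.45 in CD45+ cells and 8.26 to 9.72 in complete tumors), and their part in the differences from complete tumors was not tested.

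Tox and Cd160 were not called in either comparison. Tox, a nuclear protein of the HMG-box family, was between 8.30 and 8.75 in CD45+ cells, between 8.48 and 9.63 in CD45- cells and between 7.77 and 9.27 in complete tumors. Its CD45+ arrays lay inside the range of the complete tumors, and the highest values were those of B CD45- replicate 2 and B;p38α complete replicate 1. The difference was -0.32 against CD45- cells (95% interval -0.74 to 0.09, limma adjusted p = 0.347; -0.45 and called with array weights, adjusted p = 0.0496) and 0.12 against complete tumors (-0.27 to 0.51, limma adjusted p = 0.657). Cd160, a receptor of HVEM (Tnfrsf14) on NK and some CD8 T cells, ranged from 5.54 to 6.41, from 5.21 to 5.83 and from 5.31 to 6.35 in CD45+, CD45- and complete samples. Its differences were 0.37 (-0.03 to 0.77, limma adjusted p = 0.252) and 0.22 (-0.18 to 0.63, limma adjusted p = 0.415).

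**Figure D1:**
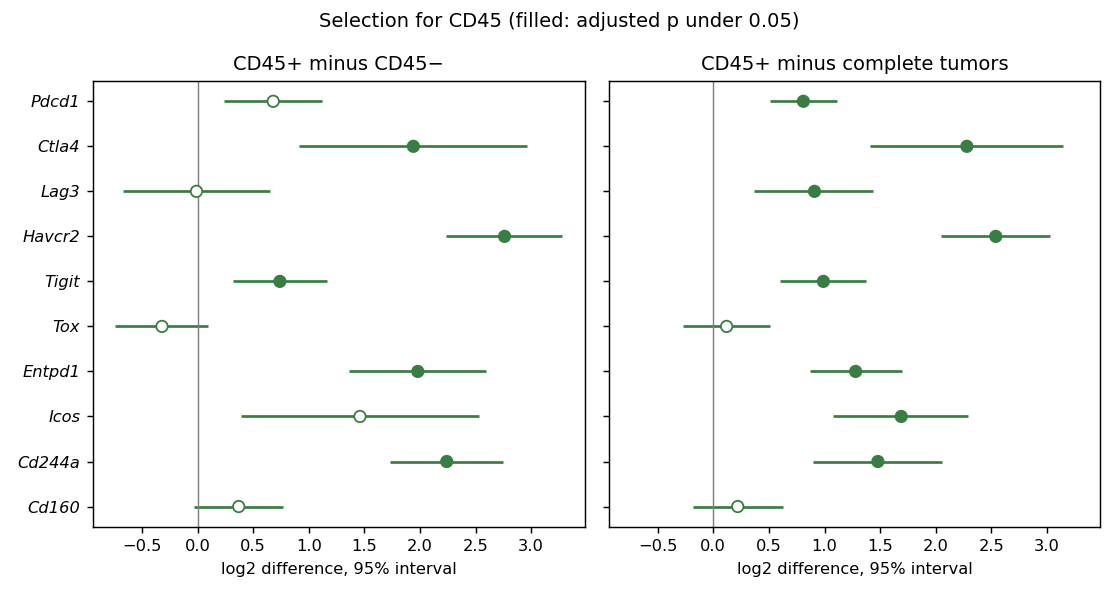
Log2 difference (horizontal axis) of each of the 10 genes between CD45+ and CD45- cells (left) and between CD45+ cells and complete tumors (right), as the mean of both genotypes with 95% intervals; filled points have a limma adjusted p under 0.05. On the left 5 genes are filled and Lag3 sits at -0.01, and on the right 8 are filled, all but Tox and Cd160.

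Counted over all genes, 7.79% were called higher and 4.37% lower in CD45+ than in CD45- cells, against 5 and 0 of the 10 genes. The median difference of the 10 genes was 1.10, and that of all genes was -0.08. Against complete tumors 14.6% of all genes were called higher and 14.3% lower, and 8 and 0 of the 10. Pdcd1, Ctla4 and Tigit were dim, with mean levels under the 30th percentile of all genes. Within B alone the called genes were Havcr2 (2.29, SE 0.34), Entpd1 (1.69, SE 0.40) and Cd244a (1.54, SE 0.33), with 3.9% of all genes called higher. Within B;p38α the called genes were again Havcr2 (3.22), Cd244a (2.94) and Entpd1 (2.26), with 4.34% of all genes called higher. Within B only Havcr2 kept its call in every fit that left out an array. The call of Cd244a was lost without B CD45+ replicates 1, 2 or 3 (1.61, 1.39 and 1.63) and without B CD45- replicates 2 or 3 (1.38 and 1.45), and that of Entpd1 without any 1 of the 6 arrays (1.61 to 1.83).

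Ligands of these receptors and related receptors were compared in the same way. Of 16 measured ligand genes, 7 were higher in CD45+ than in CD45- cells and 1, Nectin3, was lower, with a difference of -0.97. The largest differences were those of Cd86 (3.21, SE 0.40), a ligand of CTLA-4 and CD28, and Cd48 (2.79, SE 0.26), the ligand of 2B4, followed by Lgals3 (1.83) and Cd80 (1.78). Of 14 other costimulatory and coinhibitory receptors 12 were higher, among them Lair1 (2.99), Cd200r1 (2.98), Vsir (2.21) and Cd226 (2.05). Of 21 regulators of T cell exhaustion 13 were higher, led by Slamf6 (2.84), Ptpn6 (2.25), Nr4a3 (2.21) and Prdm1 (2.20). Lair1, Cd200r1, Ptpn6 and Cd86 are also expressed by myeloid cells. Of 13 T cell identity genes 8 were higher, with Cd3e at 1.77 and Cd3g at 1.71, and the other 5 did not pass. Of the 4 measured genes of regulatory T cells 0 were called by limma, with 1 at an unadjusted p under 0.05. Their median difference was 0.28, with 2 positive (Ccr8 at 0.89 and Il2ra at 0.66) and 2 negative, the lowest at -0.45. Against complete tumors 10 ligand genes were higher and 1 was lower, 13 of 14 other receptors were higher, 15 regulators were higher and Ptpn11 was lower (-0.60). Nr4a3, an early response gene as well as an exhaustion regulator, had the largest of these differences, at 4.01, beside a median of 2.23 over 10 dissociation-related genes.

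**Figure D2:**
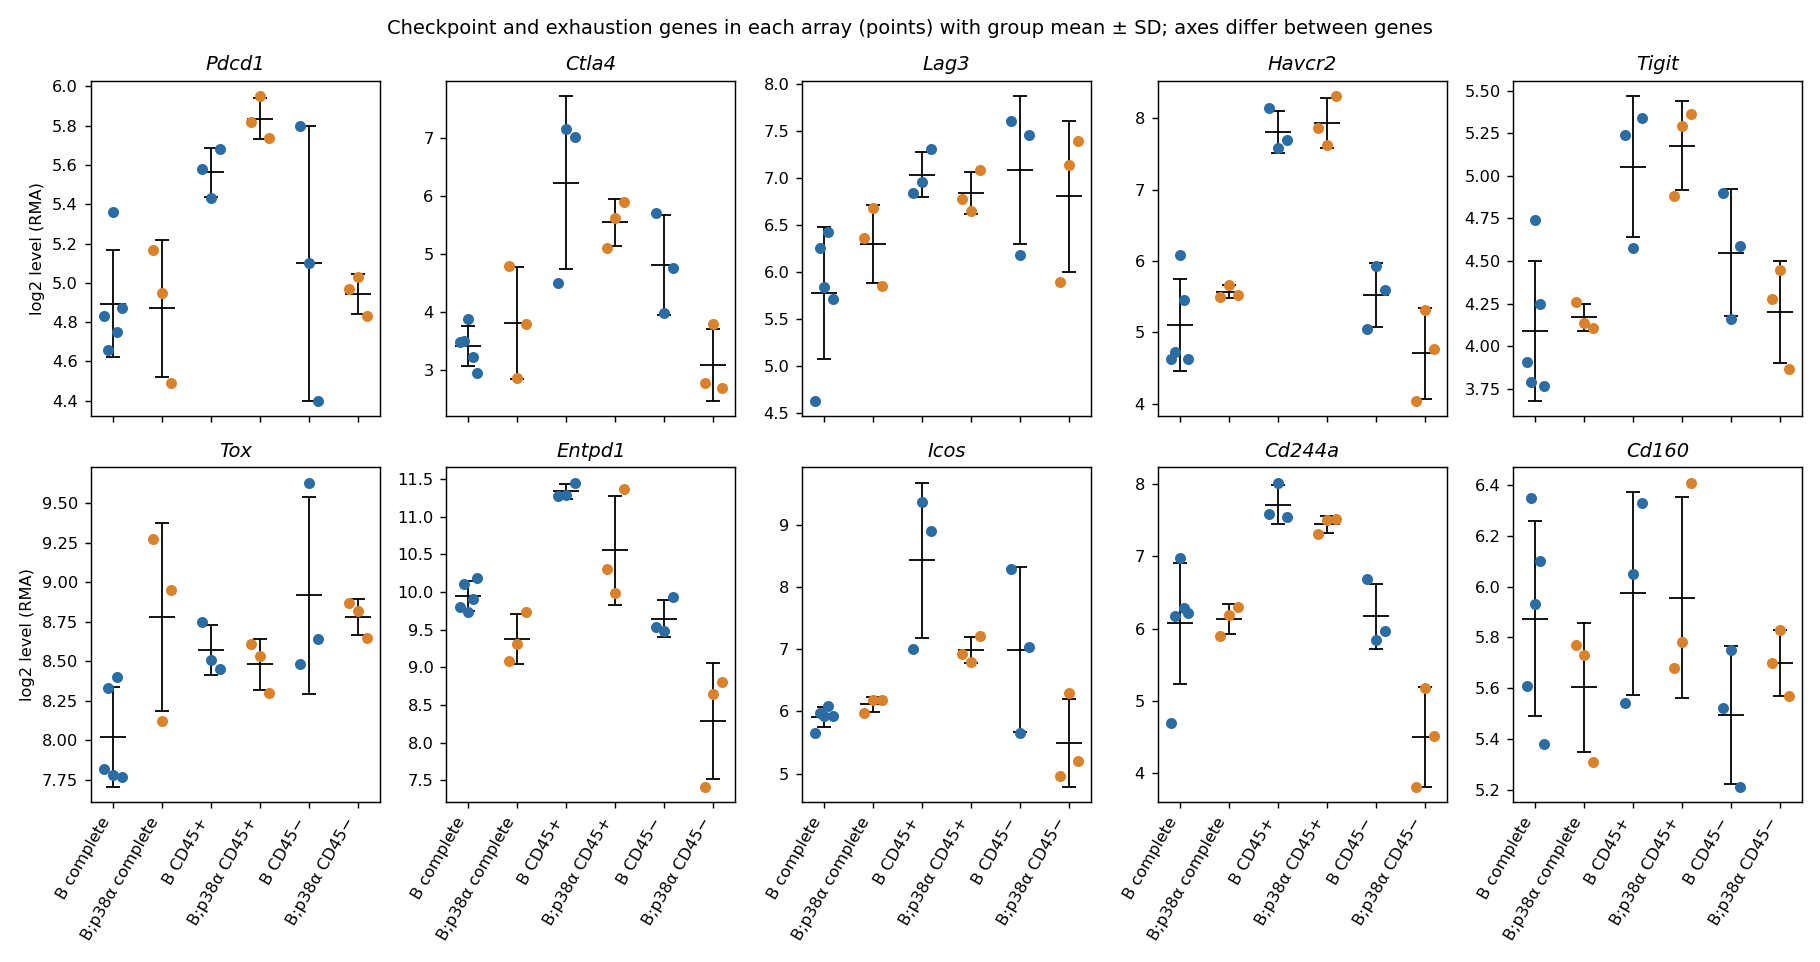
Log2 level (vertical axis, own scale for each gene) of the 10 genes in every array of the 6 groups, with B in blue and B;p38α in orange; points are arrays, horizontal bars are group means and whiskers are 1 SD. Havcr2 and Cd244a stand high in both CD45+ groups, Lag3 reaches the CD45+ levels in 4 CD45- arrays, and Icos and Ctla4 spread widely among B CD45+ arrays.

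Ordered by group mean, the top 2 groups were the CD45+ groups for Pdcd1, Ctla4, Havcr2, Tigit, Entpd1, Cd244a and Cd160. Pdcd1 was highest in B;p38α CD45+ cells (5.84 ± 0.11, SD, n = 3) and next in B CD45+ cells (5.56 ± 0.13), whose ranges did not overlap, while all lower neighbors in its order overlapped. Ctla4 ran from B CD45+ cells (6.23 ± 1.49) to B;p38α CD45- cells (3.08 ± 0.62), and every pair of neighboring groups overlapped. Lag3 had its highest mean in B CD45- cells (7.08 ± 0.78) and its next mean only 0.05 below, with overlapping ranges. Neighbors in an order that overlap are not distinguished by these samples.

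The genes also differed in which cell type genes they followed across the arrays. These correlations are descriptions over 20 arrays that share group structure and tissue, and each is given also after subtraction of the 6 group means. Ctla4 and Icos followed each other more closely than any other pair of the 10 genes (r = 0.91, and 0.78 within groups), and each was near the mean of 13 T cell genes (0.92 and 0.75 for Ctla4, 0.89 and 0.76 for Icos). Cd28, Ctla4 and Icos lie side by side on mouse chromosome 1 with 0 protein-coding genes between neighbors. The gene nearest to Ctla4 was Ccr8, a chemokine receptor of regulatory T cells (0.92 and 0.85), followed by Tnfrsf4 (OX40; 0.91 and 0.74) and Icos. Nearest to Icos were Il7r (0.91 and 0.79), the receptor chain for interleukin-7, then Ccr8 (0.91 and 0.84) and Ctla4.

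The genes nearest to Entpd1, Havcr2 and Cd244a were different ones. Entpd1 was nearest to Fli1, a transcription factor of blood and endothelial cells (0.97, and 0.90 within groups), Tlr8 (0.97 and 0.85) and Pla2g7 (0.97 and 0.81). With the macrophage list it had r = 0.94 and 0.79, with the endothelial list 0.85 and 0.71, and with the T cell list 0.76 and only 0.27. Havcr2 was nearest to the inflammasome gene Nlrp3 (0.96 and 0.76), Bcl2a1c (0.95 and 0.74) and Stap1 (0.95 and 0.69). With dendritic cell genes Havcr2 had r = 0.90 both before and after removal of group means, and with T cell genes 0.84 before and 0.02 after. Cd244a was nearest to Atp8b4 (0.96 and 0.91), Rnase6 (0.96 and 0.84) and the class II chaperone gene H2-DMb1 (0.95 and 0.78), and had r = 0.92 and 0.65 with dendritic cell genes. Its r with NK genes was 0.86 and 0.60 and with T cell genes 0.81 and 0.51.

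The remaining genes were less closely followed. Pdcd1 was nearest to Arl11 (0.88 and 0.75), Traf1 (0.88 and 0.70) and Nfkbie (0.85 and 0.62), the last 2 being genes of the NF-κB pathway, and its r with T cell genes was 0.72 and 0.28. Tigit was nearest to Gpr171 (0.88 and 0.55), Il1a (0.87 and 0.52) and Traf1 (0.86 and 0.46). Lag3 was nearest to Irak3 (0.80 and 0.81), Gabrb1 (0.79 and 0.81) and Resf1 (0.79 and 0.60). Its r was 0.71 and 0.62 with regulatory T cell genes, and 0.62 and 0.21 with dissociation-related genes. With T cell genes it was 0.56 and 0.59, with cytotoxic genes 0.55 and 0.72, and with NK genes 0.43 and 0.66. Tox had r = -0.02 with T cell genes and -0.38 within groups. Its nearest genes were Pon2 (0.88 and 0.82), Pvr (0.87 and 0.83) and Dennd5a (0.84 and 0.89), of which Pvr encodes the ligand of TIGIT. Cd160 was nearest to Lcn3 (0.77 and 0.74), Mfsd4a (0.77 and 0.76) and Nfe2 (0.75 and 0.71).

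**Figure D3:**
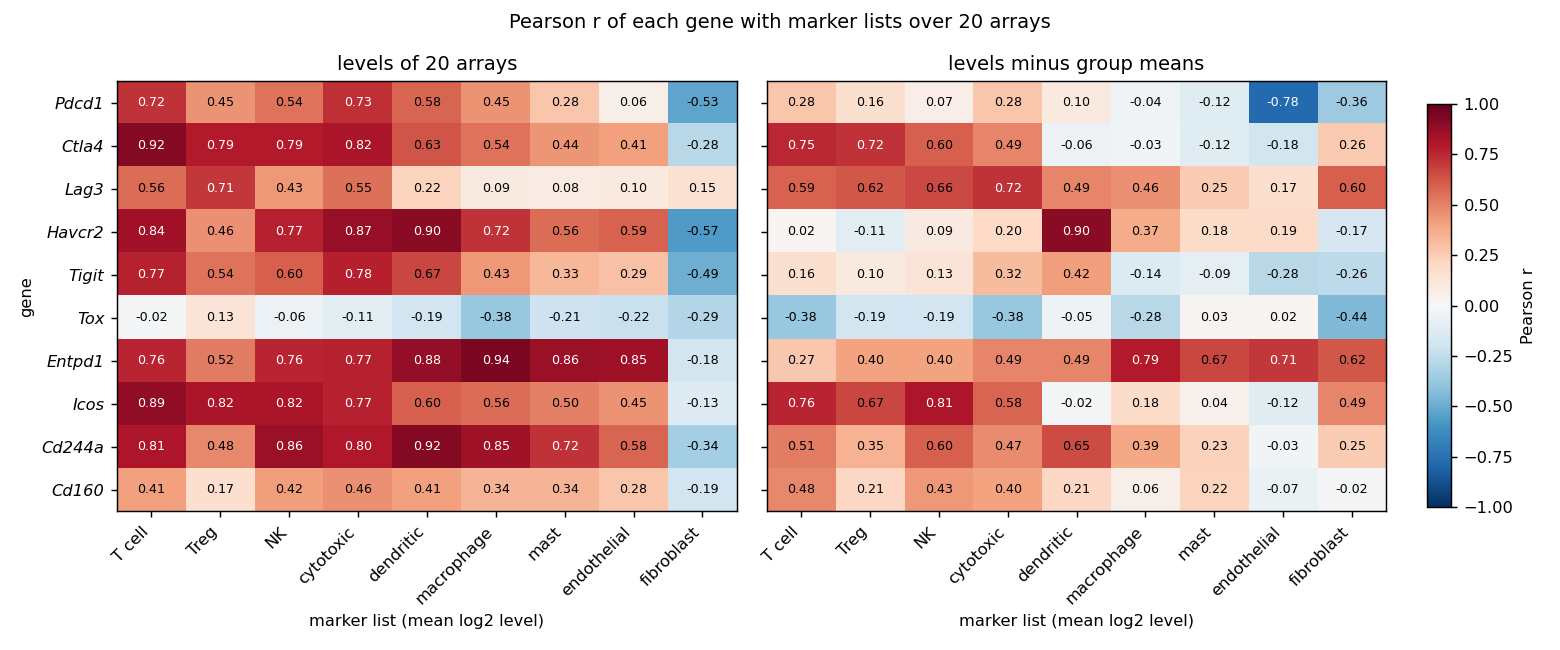
Pearson r (color and printed value) between each gene (rows) and the mean log2 level of 9 cell type marker lists (columns) over 20 arrays, as measured (left) and after subtraction of group means (right). Ctla4 and Icos keep r of 0.75 and 0.76 with the T cell list on the right, Havcr2 keeps 0.90 with the dendritic list, Entpd1 keeps 0.79 with the macrophage list, and Tox has no r above 0.13 on the left.

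The study's question was how tumors with and without melanocytic p38α differ within each compartment, and 0 of the 10 genes passed the limma threshold in any of the 3 comparisons. Among all genes the adjusted test called 0% in complete tumors, 0% in CD45+ cells and 0.0103% (2 genes) in CD45- cells. At an unadjusted p under 0.05 there were 2 of the 10 genes in complete tumors (Tox and Entpd1), 1 in CD45+ cells (Icos) and 3 in CD45- cells (Ctla4, Entpd1 and Cd244a), against 6.61%, 10.8% and 6.76% of all genes. Without B;p38α complete replicate 1 the count in complete tumors was 0 of the 10, with Tox at 0.52 and Entpd1 at -0.43. Of all 19504 genes, 494 were higher and 692 lower at that level in the same fit. The differences that follow, B;p38α minus B, are therefore values with intervals and not calls. In samples of mixed cells, fewer cells of a type and less RNA per cell cannot be told apart.

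Entpd1 had a negative difference in all 3 compartments. In complete tumors its level was 9.80, 10.11, 9.73, 9.91 and 10.19 in B and 9.08, 9.31 and 9.73 in B;p38α. B;p38α replicate 3 equaled the lowest B tumor, at 9.73, and the other B;p38α tumors were below all B tumors. The difference was -0.58 (95% interval -1.01 to -0.15, limma adjusted p = 0.716). In CD45+ cells it was -0.78 (-1.59 to 0.02, limma adjusted p = 0.468), with B;p38α replicates 1 and 2 below all B arrays and B;p38α replicate 3 among them. It was -0.50 without B;p38α CD45+ replicate 2 and -1.19 without B;p38α CD45+ replicate 3. In CD45- cells it was -1.36 (-2.29 to -0.43, limma adjusted p = 0.675), and every B;p38α array was below every B array.

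The levels of leukocyte genes stand beside these values of Entpd1. In complete tumors 8 of 8 general leukocyte genes had a negative difference (median -0.49), as had 11 of 12 macrophage genes (median -0.65). In CD45- cells all 8 and all 12 were negative, with medians of -1.54 and -1.80, and the leukocyte list ranged from 8.97 to 9.28 in B and from 6.52 to 8.51 in B;p38α. In CD45+ cells the leukocyte median was -0.33 and the macrophage median -0.18, with 10 of 12 macrophage genes negative. All 7 endothelial genes were negative there, with a median of -0.75. The endothelial median was -0.51 in complete tumors and -0.37 in CD45- cells, with 6 of 7 genes negative in each. Set against the mean of the 8 leukocyte genes in the same array, the Entpd1 difference was -0.03 in complete tumors, -0.49 in CD45+ cells and 0.11 in CD45- cells. Set against the mean of 13 T cell genes it was -0.64 in complete tumors (two-sided exact permutation p = 0.0714), -0.36 in CD45+ cells (p = 0.4, exact) and -0.91 in CD45- cells (p = 0.1, exact). With 3 against 3 samples the exact test cannot go below 0.1 and with 5 against 3 not below 0.0357, and after Benjamini-Hochberg adjustment over the 30 values of this kind the smallest was 0.5.

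**Figure D4:**
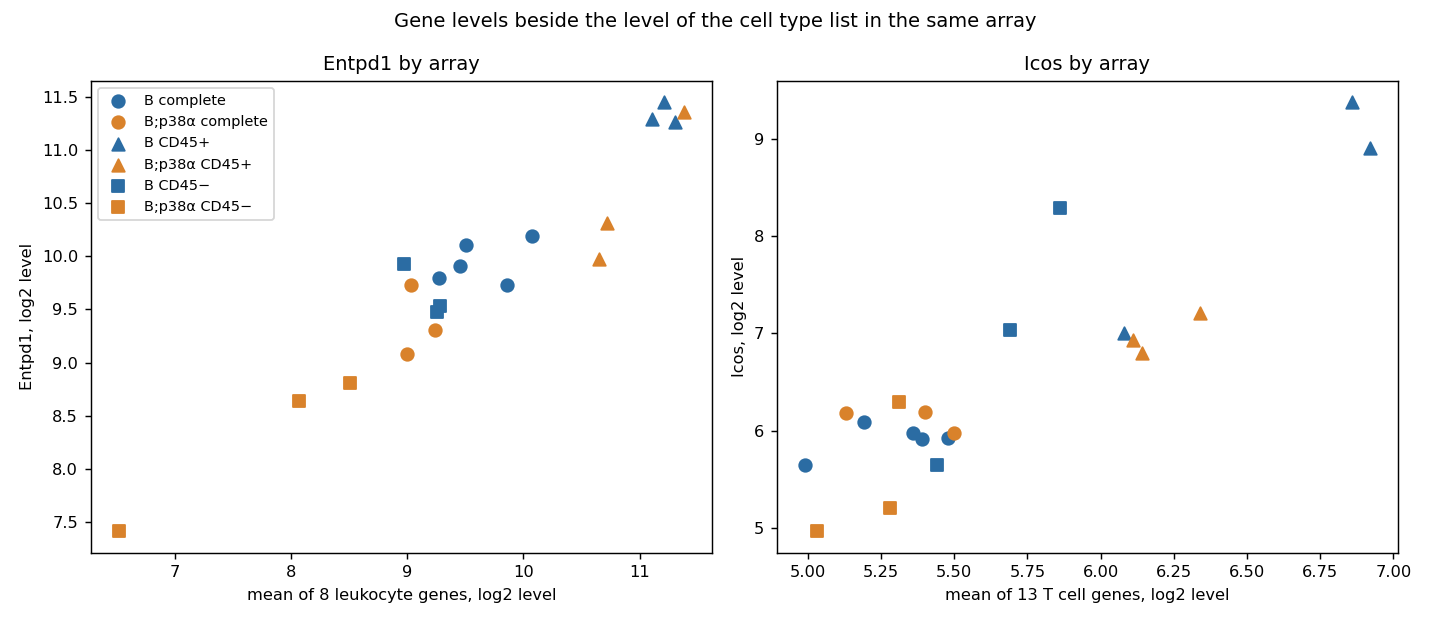
Log2 level of Entpd1 against the mean log2 level of 8 leukocyte genes (left) and of Icos against the mean of 13 T cell genes (right), with each point an array, color for genotype and shape for compartment. Entpd1 falls along a single band from B;p38α CD45- replicate 1 (6.52 and 7.41) to the CD45+ arrays, and Icos is above 8 in 3 arrays, all of genotype B.

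Icos and Ctla4 were split among B CD45+ arrays. Icos was at 7.01, 9.37 and 8.90 in B and at 6.93, 6.80 and 7.21 in B;p38α CD45+ cells. B replicates 2 and 3 stood above all B;p38α arrays, and B replicate 1 stood among them. The difference was -1.44 (-2.76 to -0.13, limma adjusted p = 0.45), and it was -2.15 without B CD45+ replicate 1 and -0.97 without B CD45+ replicate 2. For Ctla4 the difference in CD45+ cells was -0.69 (-2.28 to 0.90, limma adjusted p = 0.686), with the same B array low. It was -1.55 without that array, -0.22 without B CD45+ replicate 2 and -0.30 without B CD45+ replicate 3. The T cell list was split in the same way, at 6.08, 6.86 and 6.92 in B against 6.11, 6.14 and 6.34 in B;p38α, with a negative difference in 13 of 13 genes and a median of -0.37. Against the T cell list the Icos difference was -1.02 (two-sided exact permutation p = 0.1, adjusted 0.5).

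Genes that mark regulatory T cells, on which CTLA-4 and ICOS are abundant, stood beside these values. Of 4 measured genes 4 had a negative difference in CD45+ cells, with a median of -0.55, and 0 were called by limma, with 2 at an unadjusted p under 0.05. The largest were Il2ra (-1.44, SE 0.36) and Lrrc32 (-0.60, SE 0.16). Foxp3 was not analysed here. In CD45+ cells 10 of 10 dissociation-related genes had a positive difference (median 0.58), and 3 of 3 measured Y-linked genes a negative one (median -3.29), and the part of dissociation in the values of Icos and Ctla4 was not tested. With weights that lower the influence of deviating arrays, 4 of the 10 genes were called in CD45+ cells, where that fit called 27.2% of all genes: Icos (-1.95), Ctla4 (-1.47), Entpd1 (-1.20) and Lag3 (-0.52). With the Y-linked mean as a covariate 2 were called, Icos (-3.15) and Ctla4 (-2.73), and 1.28% of all genes. The Y-linked mean was higher in every B than in every B;p38α CD45+ array, so that fit cannot cleanly separate it from genotype. Among B CD45+ arrays it was highest in replicate 1, the array lowest for Icos and Ctla4. The part of that array in these 2 values was not tested.

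Pdcd1 and Cd244a were the genes whose CD45+ genotype groups did not overlap, 2 of 10 against 16.5% of all genes. Pdcd1 was at 5.58, 5.43 and 5.68 in B and at 5.82, 5.95 and 5.74 in B;p38α. All B;p38α arrays were higher, with a difference of 0.27 (-0.10 to 0.65, limma adjusted p = 0.53). Cd244a was lower in all B;p38α arrays, with a difference of -0.27 (-0.71 to 0.17, limma adjusted p = 0.576). Havcr2 differed by 0.12 (-0.44 to 0.68) and Lag3 by -0.19 (-0.66 to 0.28), Tigit by 0.12, Tox by -0.09 and Cd160 by -0.02. The intervals of Tigit (-0.47 to 0.71), Tox (-0.49 to 0.32) and Cd160 (-0.68 to 0.64) exclude a change of 1 log2 unit in either direction. Those of Pdcd1, Cd244a, Havcr2 and Lag3 exclude it as well, and those of Ctla4, Entpd1 and Icos do not.

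In CD45- cells 9 of the 10 genes had a negative difference, with a median of -0.58 against 0.05 for all genes. Ctla4, Entpd1 and Cd244a did not overlap between genotypes, 3 of 10 against 16% of all genes. The CD45- levels of Ctla4, given above, were all lower in B;p38α, with a difference of -1.72 (-2.90 to -0.55, limma adjusted p = 0.675). Those of Cd244a were also all lower in B;p38α, with a difference of -1.67 (-2.62 to -0.72, limma adjusted p = 0.675). Icos differed by -1.50 (-3.10 to 0.10) and Havcr2 by -0.81 (-1.72 to 0.10), with overlapping groups. The Icos value was -0.85 without B CD45- replicate 1, the narrowest array, and the Havcr2 value -0.48 without B;p38α CD45- replicate 1. Cd160 alone was positive, at 0.21 (-0.32 to 0.74).

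The leukocyte signal left in the CD45- fraction also differed, as given above for the leukocyte and macrophage lists. All 13 T cell genes were negative in CD45- cells, with a median of -0.35, and 7 of 8 NK genes, with a median of -0.72. Set against the T cell list, Ctla4 differed by -1.27 and Cd244a by -1.21 (two-sided exact permutation p = 0.1 for each, adjusted 0.5). Set against the leukocyte list, they differed by -0.26 and -0.20. B;p38α CD45- replicate 1 had the lowest leukocyte mean of all arrays, at 6.52, and without it the differences were -1.32 for Cd244a and -0.92 for Entpd1.

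In complete tumors, Tox had the largest difference. It was at 7.82, 8.33, 7.78, 8.40 and 7.77 in B and at 9.27, 8.12 and 8.95 in B;p38α. B;p38α replicates 1 and 3 exceeded all B tumors, and replicate 2 lay among them. The difference was 0.76 (0.15 to 1.37, limma adjusted p = 0.733), while T cell genes differed by a median of 0.11. Pvr, whose levels followed those of Tox across arrays, differed by 0.96 (SE 0.48, limma adjusted p = 0.778). Of the 10 genes 0 separated the genotypes of complete tumors without overlap, against 4.46% of all genes. Lag3 (0.52, -0.31 to 1.36), Havcr2 (0.46, -0.27 to 1.20) and Ctla4 (0.41, -0.43 to 1.25) were positive, and without B complete replicate 1 that of Lag3 was 0.24. Without B;p38α complete replicate 1 the Ctla4 difference was -0.08. Icos differed by 0.20 (-0.14 to 0.55), and Pdcd1, Tigit and Cd244a were within 0.08 of 0. Cd160 differed by -0.27 (-0.80 to 0.25).

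**Figure D5:**
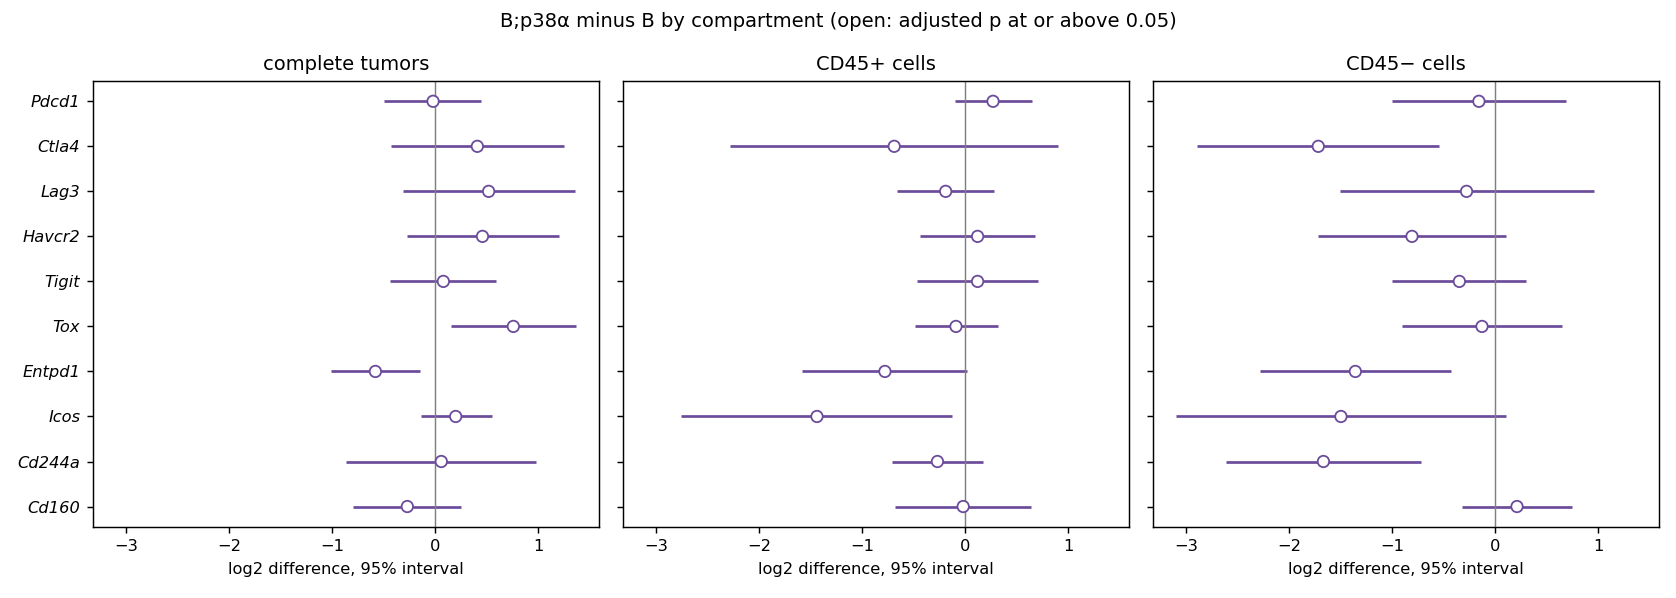
Log2 difference B;p38α minus B (horizontal axis) of each gene in complete tumors, CD45+ cells and CD45- cells, with 95% intervals; all points are open because the limma adjusted p is at or above 0.05. Entpd1 is negative in the 3 panels (-0.58, -0.78 and -1.36), Icos is positive in complete tumors (0.20) and negative in both sorted populations, and the intervals of Ctla4 and Icos are the widest in CD45+ cells.

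Whether a genotype difference itself differed between compartments was tested with interaction terms. Between CD45+ and CD45- cells 0 of the 10 genes and 0% of all genes were called by limma. At an unadjusted p under 0.05 there were 1.95% of all genes and 1 of the 10, Cd244a, whose difference was higher in CD45+ than in CD45- cells by 1.40 (0.38 to 2.42, limma adjusted p = 1). Between CD45+ cells and complete tumors 0% of all genes were called, and 9.55% had an unadjusted p under 0.05, with 2 of the 10. These were Icos (-1.65, -2.85 to -0.44, limma adjusted p = 0.494) and Tox (-0.85, -1.63 to -0.07, limma adjusted p = 0.507). Without B CD45+ replicate 1 the interaction of Icos was -2.35 and was called, as were 0.154% of all genes.

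None of the ligand, receptor or regulator genes was called by limma in a genotype comparison. In complete tumors 7 of 16 ligand genes were positive and 9 negative, 2 of them at an unadjusted p under 0.05, with Lgals3 at -1.18 (SE 0.38), Pvr at 0.96 and Nt5e, which turns AMP into adenosine after CD39, at 0.80 (SE 0.26). In CD45+ cells 10 ligand genes were positive and 6 negative, 1 of them at an unadjusted p under 0.05. There the largest were Ceacam1 (-0.86, SE 0.38), Pdcd1lg2 (-0.85, SE 0.44) and Icosl (-0.77, SE 0.22). In CD45- cells 6 were positive and 10 negative, with Cd86 at -1.57 (SE 0.68) and Icosl, the ligand of ICOS, at -1.31 (SE 0.55). Cd274, the gene of PD-L1, differed by 0.10 in complete tumors, 0.44 in CD45+ cells and -0.47 in CD45- cells, with a standard error from 0.24 to 0.27. Adora2a was not analysed here.

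Most of the other receptors had negative differences in sorted cells. In complete tumors 7 of 14 were positive and 7 negative, and Cd200r1 differed by -0.77 (SE 0.24). In CD45+ cells 11 of 14 were negative, with a median of -0.42, led by Cd96 (-0.89, SE 0.40) and Cd226 (-0.80, SE 0.52), both receptors of CD155. In CD45- cells 11 of 14 were negative, with a median of -0.55, led by Lair1 (-1.72, SE 0.62) and Cd200r1 (-1.49, SE 0.45). Of the 21 exhaustion regulators 13 were negative in complete tumors, 11 in CD45+ cells and 13 in CD45- cells. In CD45+ cells Cxcr6, a chemokine receptor of resident T cells, differed by -1.06 (SE 0.47), Id3 by 0.87 (SE 0.27) and Nr4a3 by 0.82 (SE 0.38). Nr4a3 was -1.33 (SE 0.65) in CD45- cells, where Slamf6, which marks progenitors of exhausted cells, was -1.21 (SE 0.33). In complete tumors the regulators were between -0.51 (Cxcr5) and 0.56 (Cxcr6).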

How the data were processed

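Values are log2 expression levels of biotin-labeled arrays, deposited by the authors as 1 table after RMA, as the submitters' processing notes name it. RMA's version and which arrays were normalized together are not given in the sources used here. RMA shrinks differences of dim genes, so folds of Pdcd1, Ctla4 and Tigit may be understated. The table had 21244 rows, of which 1674 had no gene symbol, and the row with the highest mean was kept per symbol, leaving 19504 genes. Groups were taken from the sample labels.

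In R 4.3.3, limma 3.58.1 (lmFit, then eBayes) was fitted to all 19504 genes, and p-values were adjusted over them by Benjamini-Hochberg, with a threshold of 0.05. Genotype fits used the arrays of 1 compartment, the CD45+ and CD45- fit the 4 sorted groups, and the CD45+ and complete fit 14 arrays. Differences from a list's mean were compared by two-sided exact permutation over samples. The script was tested on simulated data. Array data have no depth, and the number of arrays limits precision.

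All 10 genes were named in every group, other list genes where they passed or had the largest differences, and for each of the 10 genes the 3 with the highest r. Members and lists were chosen with earlier results of these data known. Alternatives were all 6 groups in 1 fit, a replicate block, dim genes left out, repeated quantile normalization, centered medians, array weights, mean of rows, trended robust variance, a Y-linked covariate, another reference list and each array left out. Chosen after seeing the data were leaving out the 2 narrowest arrays and averaging the most similar pair. Promoter sequences came from RefSeq on GRCm38.p6. Figures used matplotlib 3.10.9 in Python 3.11.15.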

Additional observations from a re-analysis of the deposited data

How the results depend on the processing

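Counts of called genes were recomputed 96 times with all replicates or with the added settings, and 11 of these moved by more than 1.5 times. In CD45+ genotype comparisons the count was 0, with 4 under array weights, which called 27.2% of all genes, and 2 with the Y-linked covariate, which called 1.28%. For CD45+ against CD45- cells it was 5. It was 3 when dim genes were left out, beside 12.2% of the kept genes called higher. That filter removes Ctla4 and Tigit, which were among the 5, so this fall follows from the filter. Under array weights it was 8 (7 higher and 1 lower, Tox, beside 10.4% and 11.6% of all genes). With an array left out it was 3 to 7, beside 6.17% to 7.99% of all genes called higher. Within B it was 3, with 7 under array weights (all higher, beside 7.35% of all genes higher). It was 1 without the 2 narrowest arrays (1.49% of all genes higher). With an array left out it was 1 to 2 (1.35% to 3.24% of all genes higher). Within B;p38α it was 3, with 5 in a single fit of all groups (5.11% of all genes higher). It was 6 under array weights (6.26% of all genes higher) or without the 2 narrowest arrays (4.59% higher). Against complete tumors it was 8, with 5 when dim genes were left out, which removes Pdcd1, Ctla4 and Tigit. In that fit 19.1% of the kept genes were called higher. For the interaction of complete and CD45+ samples it was 0, with 1 under array weights (2.73% of all genes). With an array left out it was 0 to 1, the 1 being without B CD45+ replicate 1 (0.154% of all genes). The labels do not say whether same-numbered samples share a tumor. Deviations of same-numbered samples correlated between -0.568 and 0.363, which does not settle whether they are paired. Under the replicate block the call of Ctla4 against CD45- cells was lost (adjusted p = 0.0818), as was that of Cd244a within B (adjusted p = 0.0578).

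Some differences changed sign, most of them small. In complete tumors Pdcd1 was 0.01 after quantile normalization and after centering, and Cd244a was -0.28 with the Y-linked covariate. In CD45+ cells Tigit was -0.15 and Tox 0.08 under array weights, Tox was 0.14 with the Y-linked covariate, Tigit was -0.12 and Cd160 0.02 without the narrowest arrays, and Cd160 was 0.02 after quantile normalization and 0.10 with the similar pair averaged. In CD45- cells Pdcd1 was 0.08 and Lag3 0.11 under array weights, and Pdcd1 was 0.19 without the narrowest arrays. Lag3 between CD45+ and CD45- cells was 0.12, 0.15 and 0.03 under array weights, without the narrowest arrays and with the pair averaged. The largest were Entpd1 in CD45- cells, at -0.91 against T cell genes and 0.11 against leukocyte genes, and Ctla4 in complete tumors, at 0.41 and -0.08 without B;p38α complete replicate 1. The cause was not tested. With an array left out, the ranges were, in complete tumors, Pdcd1 -0.18 to 0.17, Ctla4 -0.08 to 0.89, Tigit -0.00 to 0.24 and Cd244a -0.29 to 0.28. In CD45+ cells they were Havcr2 -0.07 to 0.29, Tigit -0.12 to 0.27, Tox -0.15 to 0.01 and Cd160 -0.25 to 0.16. In CD45- cells they were Pdcd1 -0.51 to 0.19, Lag3 -0.73 to 0.18 and Tox -0.35 to 0.23. Lag3 ranged from -0.23 to 0.14 between CD45+ and CD45- cells, and Tox from -0.04 to 0.25 against complete tumors.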
